A study of Mus musculus with 36 samples.

Results

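The 7 genes described here, Cd274, Pdcd1lg2, Cd200, Lgals9, Havcr2, Ido1 and Fas, are inhibitory and regulatory checkpoint genes of dendritic cells, out of 53299 genes in the deposited count table. They were chosen by name, without a threshold on their values but with earlier results of these data known. Of the 7 genes, 6 passed the filter on low counts and were tested among 12463 genes, while Pdcd1lg2 did not pass it and is given by its values.

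Messenger RNA was sequenced from conventional dendritic cells of 2 kinds, cDC2 and cDC1, induced by FLT3 ligand in cultures of mouse bone marrow, and the series calls the replicates biological. LPS is a bacterial outer membrane lipid sensed by TLR4, and PGPC is an oxidized phospholipid found in damaged tissue. The groups are cDC2 with LPS_PGPC (LPS and PGPC together), LPS, PGPC or Nothing (untreated), and cDC1 with the same 4 conditions, with 3 libraries each except for cDC2 with PGPC, which has 2. All groups share the FLT3 ligand culture, and the labels give no genotype, strain, sex, age or time of treatment and do not say whether animals were pooled. Replicates carry the numbers 1 to 3 in cDC1 and 4 to 6 in cDC2, so the kind of cell and the set of replicate numbers cannot be told apart. In these bulk samples, fewer cells of a type and less RNA per cell cannot be told apart either.

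Checkpoint ligands on a dendritic cell set how strongly a T cell is stopped or restrained after it has recognised antigen. Cd274 (PD-L1) and Pdcd1lg2 (PD-L2) bind the receptor PD-1 on T cells, Cd200 binds an inhibitory receptor on myeloid cells, and Lgals9 (galectin-9) is a secreted lectin that binds several glycoproteins, among them the receptor TIM-3, which Havcr2 encodes and which dendritic cells carry themselves. Ido1 is the enzyme that starts the breakdown of tryptophan to kynurenine, and Fas is a death receptor through which a T cell can kill the cell it touches. In many cells interferons raise Cd274 through JAK and STAT proteins and the factor IRF1, and LPS acts on many of these genes through NF-kB and through interferon that the cell makes itself.

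Values are levels in CPM, counts scaled by TMM-adjusted library totals, and a spread after ± is a standard deviation over libraries. Differences are log2 fold changes from edgeR's quasi-likelihood test ± standard error. edgeR does not give that error, which was computed as the log2 fold change over the square root of the test's F statistic. Intervals of log2 fold changes were built from it with a normal quantile. A gene was called when its Benjamini-Hochberg adjusted p over all 12463 genes was under 0.05. CPM is not scaled for gene length, so levels are compared between groups for 1 gene and not between genes.

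The 23 libraries held 243870 to 16601064 counts and 9687 to 15608 detected genes, and 7.70% to 71.9% of their counts fell on the ribosomal RNA locus. The cDC1 markers (10 genes) summed to 194 to 249 CPM in untreated cDC2 and 1187 to 1865 CPM in untreated cDC1. The cDC2 markers (10 genes) summed to 1013 to 1467 CPM in untreated cDC2 and 343 to 591 CPM in untreated cDC1. Of the cDC1 markers, 6 were called lower in untreated cDC2, among them Clec9a, Irf8 and Batf3, while Xcr1 was at 0.347 CPM in untreated cDC2 and 0.177 CPM in untreated cDC1. Of the cDC2 markers, Sirpa, Itgam and Cd4 were called higher in untreated cDC2, and Sirpa, at 1096 CPM there, made up most of the sum. Irf4 went against the label, at 2.61 CPM in untreated cDC2 and 24.8 CPM in untreated cDC1 (-2.84 ± 0.60, edgeR adjusted p = 0.00327). Clec10a (2.29 and 5.92 CPM) and Cd209a (0.175 and 2.07 CPM) were also lower in untreated cDC2 without being called, and Cd209a was at 0 in cDC2 with LPS_PGPC, LPS and PGPC. Monocyte or macrophage markers (12 genes) were present in all groups, at 5769 to 7268 CPM in untreated cDC2 and 1563 to 4290 CPM in untreated cDC1. T or NK cell markers summed to at most 8.34 CPM. Some libraries stood apart within their group. In cDC2 with LPS, replicate 4 had cDC2 markers at 4321 CPM, against 1138 and 1630 CPM in replicates 5 and 6. Its monocyte or macrophage markers were at 5682 CPM, against 3284 and 2895 CPM. In cDC2 with LPS_PGPC, replicate 4 had cDC2 markers at 2222 CPM, against 1017 and 818 CPM, and monocyte or macrophage markers at 5730 CPM, against 3177 and 2794 CPM. In cDC1 Nothing, replicate 1 had monocyte or macrophage markers at 1563 CPM, against 4278 and 4290 CPM, and 71.9% of its counts on the ribosomal RNA locus, against 40.7% and 47.0%. The cDC2 Nothing replicate 6 was the shallowest library, in which 1 count stood for 3.74 CPM.

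The genes lie on 4 chromosomes (GRCm38, GENCODE M21). Cd274 (chr19:29367455-29388095, plus strand) and Pdcd1lg2 (chr19:29410919-29471161, plus strand) are neighbours, 22823 bases apart, and Fas (chr19:34290666-34327772, plus strand) lies on the same chromosome. Lgals9 (chr11:78962974-78984946, minus strand) and Havcr2 (chr11:46454935-46481255, plus strand) share chromosome 11, Cd200 is at chr16:45382135-45409053 on the minus strand, and Ido1 is at chr8:24584136-24597009 on the minus strand. Exons of Cd274 overlap those of the annotated gene AC119228.1 on the opposite strand, and since Smart-Seq2 does not keep the strand, reads from that overlap cannot be told apart.

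RefSeq's promoter table for GRCm38.p6 held 6 of the 7 genes, with a window of 250 bases before to 50 bases after the start of each gene. The 4 ligand genes are printed because the main results turn on 3 of them and because Pdcd1lg2, which lies beside Cd274 on the chromosome, was near the limit of detection. Capitals mark matches, on either strand, to GAAANNGAA (the core bound by interferon regulatory factors), TTCNNNGAA (the STAT core), TGANTCA (AP-1) and the NF-kB consensus. Cd274 is shown at chr19:29367188-29367487 (plus strand), Pdcd1lg2 at chr19:29410669-29410968 (plus strand), Cd200 at chr16:45409004-45409303 (minus strand) and Lgals9 at chr11:78984875-78985174 (minus strand).
Cd274: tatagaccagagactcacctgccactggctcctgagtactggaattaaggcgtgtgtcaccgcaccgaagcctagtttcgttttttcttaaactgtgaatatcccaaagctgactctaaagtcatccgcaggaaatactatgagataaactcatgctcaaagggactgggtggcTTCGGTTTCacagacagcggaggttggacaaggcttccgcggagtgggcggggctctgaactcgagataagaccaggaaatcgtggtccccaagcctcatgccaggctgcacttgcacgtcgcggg
Pdcd1lg2: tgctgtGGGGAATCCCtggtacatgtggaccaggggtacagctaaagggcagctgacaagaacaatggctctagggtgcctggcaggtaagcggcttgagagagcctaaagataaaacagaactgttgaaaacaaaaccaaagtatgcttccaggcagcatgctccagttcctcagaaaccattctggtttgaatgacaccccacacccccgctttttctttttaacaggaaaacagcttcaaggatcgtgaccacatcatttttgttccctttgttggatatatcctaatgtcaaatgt
Cd200: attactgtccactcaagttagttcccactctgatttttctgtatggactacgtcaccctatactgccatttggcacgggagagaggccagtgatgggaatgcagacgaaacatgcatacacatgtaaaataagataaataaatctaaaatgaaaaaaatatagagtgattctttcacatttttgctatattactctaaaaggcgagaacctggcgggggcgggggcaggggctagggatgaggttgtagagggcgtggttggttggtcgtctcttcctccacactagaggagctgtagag
Lgals9: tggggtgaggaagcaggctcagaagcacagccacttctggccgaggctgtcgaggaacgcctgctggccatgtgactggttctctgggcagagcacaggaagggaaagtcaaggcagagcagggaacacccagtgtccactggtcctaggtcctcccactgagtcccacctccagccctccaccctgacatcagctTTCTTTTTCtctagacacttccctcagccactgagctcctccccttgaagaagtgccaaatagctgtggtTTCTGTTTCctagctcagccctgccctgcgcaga

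The Cd274 window held 1 match to the interferon regulatory factor core, TTCGGTTTC, whose first base is at position -76 from the start of the gene. Lgals9 held 2 such matches, TTCTTTTTC at position -54 and TTCTGTTTC at position 17. Pdcd1lg2 held 1 match to the NF-kB consensus, GGGGAATCCC at position -244, and the Cd200 window held none of the 4 motifs. Of the windows not printed, Havcr2 held 1 match to AP-1, TGATTCA at position -200. Fas held 1 match to the STAT core, TTCTGGGAA at position -93, and 1 to AP-1, TGAGTCA at position -211. Of all 32851 promoters in the table, 8.56% held the interferon regulatory factor core, 8.30% the STAT core, 7.81% AP-1 and 8.46% the NF-kB consensus. None of the matches overlapped another motif. A match describes letters in the window and not a bound site.

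**Figure D1:**
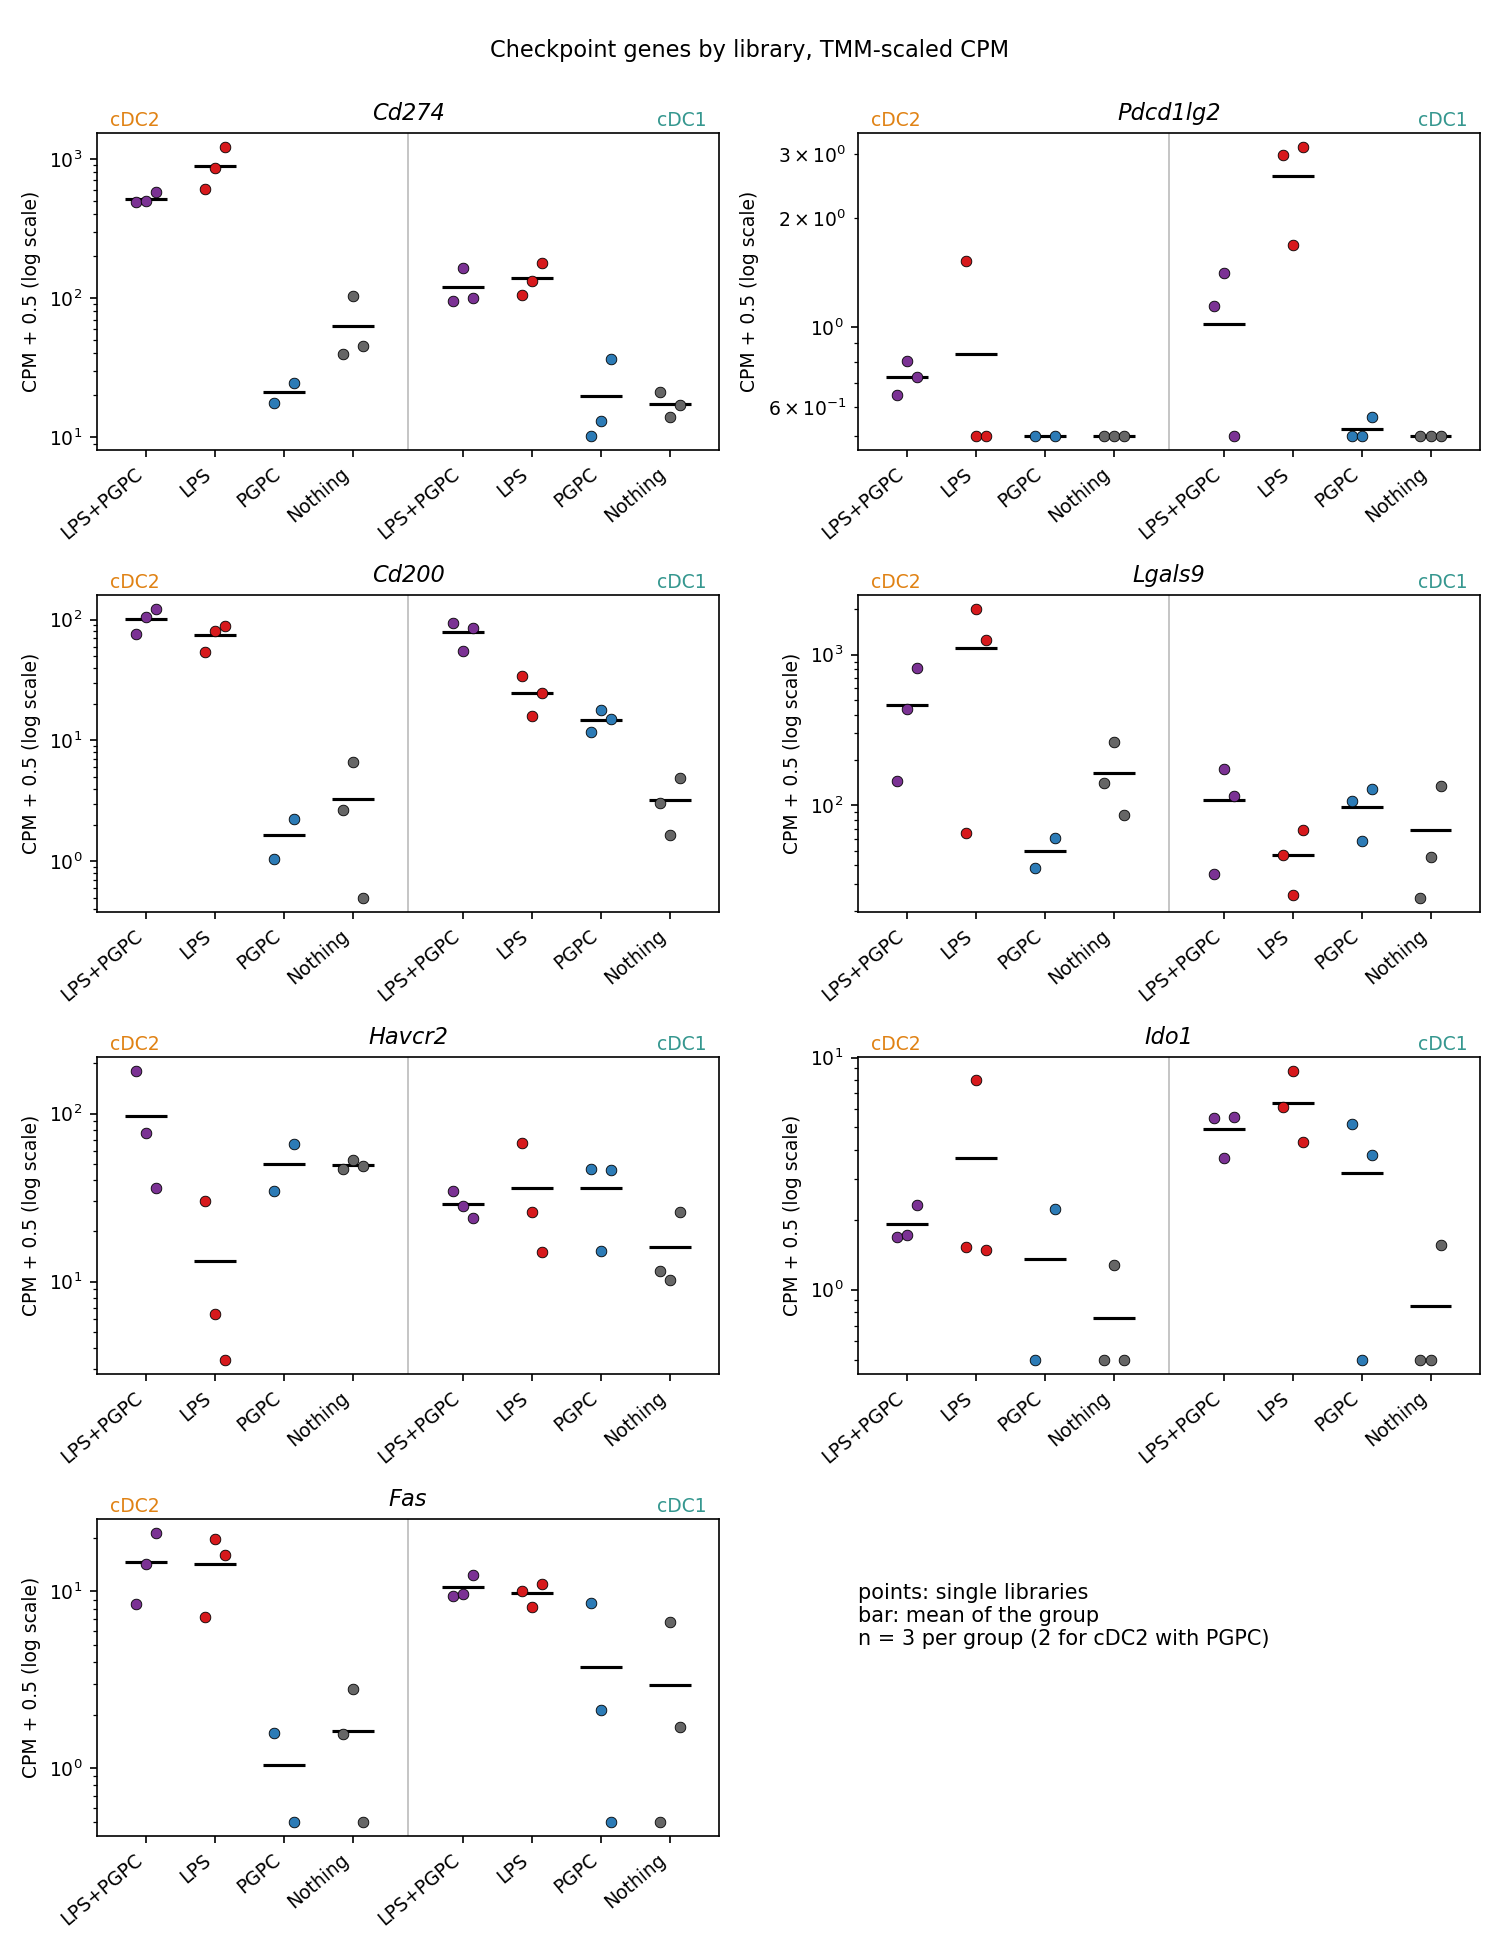
Levels of the 7 checkpoint genes in each library, 1 panel a gene, on a log axis of CPM with 0.5 added, with groups along the horizontal axis, 1 point a library and a bar at the group mean. Cd274 and Cd200 stood higher in every library with LPS_PGPC or LPS than in every Nothing library of the same kind of cell, and Lgals9 and Havcr2 scattered widely within cDC2 with LPS.

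Cd274 and Cd200 were called higher with LPS than in untreated cells in both cDC2 and cDC1. Lgals9 was also called higher with LPS in cDC2, where its libraries disagreed. In cDC2 with LPS, 3 of 6 tested members were called higher and none lower, beside 8.52% of all tested genes called in either direction and 5.82% called higher. In cDC1 with LPS, 2 of 6 were called higher and none lower, beside 17.9% called in either direction and 8.58% called higher. The median log2 fold change of the 6 tested members was 3.12 in cDC2 and 2.38 in cDC1, against medians of 0.03 and -0.12 over all tested genes.

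Cd274, the ligand of PD-1 on T cells, had 607, 860 and 1216 CPM in replicates 4, 5 and 6 of cDC2 with LPS, against 39.3, 103 and 44.8 CPM in cDC2 Nothing. In cDC1 it had 105, 132 and 177 CPM in replicates 1, 2 and 3 with LPS, against 20.5, 13.5 and 16.5 CPM in cDC1 Nothing. The groups did not overlap in either kind of cell. The log2 fold change was 3.80 ± 0.50 in cDC2 (edgeR, adjusted p = 1.98e-05) and 3.05 ± 0.48 in cDC1 (adjusted p = 8.83e-05), a fold of 8.30 in cDC1. Both calls held with any 1 library left out. Of the 9 Cd274 calls described here, none held in a fit of all 36 libraries, alum libraries included, where the adjusted p of these 9 ran from 0.120 to 0.640. The log2 fold change with LPS in that fit was 3.87 in cDC2 and 3.01 in cDC1, so the call was lost with little change in the fold.

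The ribosomal RNA locus took 21.3% to 26.4% of counts in cDC2 with LPS and 28.6% to 37.3% in cDC2 Nothing, and 13.9% to 25.9% in cDC1 with LPS and 40.7% to 71.9% in cDC1 Nothing. With the counts of that locus left out, all 20 calls over the members remained. Monocyte or macrophage markers (12 of 12 with counts in these groups) were at 2895 to 5682 CPM in cDC2 with LPS and 5769 to 7268 CPM in cDC2 Nothing, and at 910 to 2036 CPM in cDC1 with LPS and 1563 to 4290 CPM in cDC1 Nothing. Plasmacytoid dendritic cell markers (10 genes) were at 246 to 539 CPM in cDC2 with LPS, with Siglech, Ly6d and Klk1 at 0, and 22.4 to 71.7 CPM in cDC2 Nothing, with Ly6d and Klk1 at 0. Siglech thus had counts in cDC2 Nothing and none with LPS, and the sums do not show which markers carried them. In cDC1 the sums of these markers overlapped, at 188 to 337 CPM with LPS and 288 to 477 CPM with Nothing. Mast cell or basophil markers, of which 3 of 8 had counts and Mcpt8, Fcer1a, Ms4a2, Cpa3 and Mcpt4 were at 0, were at 216 to 258 CPM in cDC2 with LPS and 7.76 to 14.2 CPM in cDC2 Nothing. Most of that sum with LPS was Hdc, at 203 CPM in cDC2 with LPS and 1.85 CPM in cDC2 Nothing, with Kit at 38.3 and 9.11 CPM. Hdc was also called higher with LPS in cDC1, at 63.1 CPM against 0.169 CPM in cDC1 Nothing (edgeR adjusted p = 0.000245). Neutrophil markers (8 genes) were at 0 to 6.69 CPM in cDC1 with LPS, where Mpo, Elane, Ly6g, Ngp and Retnlg were at 0, and at 23.1 to 140 CPM in cDC1 Nothing, where Elane and Ly6g were at 0. The part of any such cells in the results was not tested.

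Pdcd1lg2, the other PD-1 ligand, was close to the limit of detection everywhere. It had 2.50, 1.18 and 2.65 CPM in replicates 1, 2 and 3 of cDC1 with LPS, from 39 counts in all, and no count in cDC1 Nothing. Against a floor of 3 counts over the group, this was at least 12.5-fold higher. The 2-sided exact permutation test gave p = 0.1 (n = 3 each), the smallest that 3 against 3 libraries can give. In cDC2 with LPS there were 2 counts, in replicate 4, and none in cDC2 Nothing. The ratio of cDC2 with LPS to cDC1 with LPS was 0.173, with a 95% counting interval of 0.0202 to 0.668. The order between the kinds of cell was therefore opposite to that of Cd274, on very few counts. Reads carried no molecular identifiers, so counting intervals and floors cover counting error only.

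Cd200, a membrane glycoprotein that restrains myeloid cells through its receptor, had 53.2, 80.7 and 87.9 CPM in replicates 4, 5 and 6 of cDC2 with LPS, against 2.14, 6.19 and 0 CPM in cDC2 Nothing. In cDC1 it had 33.8, 15.3 and 24.1 CPM in replicates 1, 2 and 3 with LPS, against 2.56, 1.14 and 4.38 CPM in cDC1 Nothing. Again no LPS library overlapped an untreated one. The log2 fold change was 4.28 ± 0.58 in cDC2 (edgeR, adjusted p = 2.64e-05) and 3.19 ± 0.54 in cDC1 (adjusted p = 0.000174). The 0 in cDC2 Nothing replicate 6 came from the shallowest library, in which 3 counts would have stood for more than either of the other replicates.

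Lgals9, the secreted galectin, varied widely between libraries of 1 group. It had 64.9, 2009 and 1248 CPM in replicates 4, 5 and 6 of cDC2 with LPS, against 140, 263 and 85.9 CPM in cDC2 Nothing. Replicate 4 lay below every untreated library, while the others lay far above them. The log2 fold change was 2.74 ± 0.85 (edgeR, adjusted p = 0.0433), and of the 6 fits that each left out 1 of these libraries only that without cDC2 LPS replicate 4 kept the call, with an adjusted p of up to 0.224 in the others. The call was also lost with the replicate number as a block (adjusted p = 0.132) and in the fit of all 36 libraries (adjusted p = 0.541). In cDC1 Lgals9 had 46.4, 24.8 and 67.6 CPM with LPS, against 23.9, 44.7 and 134 CPM in cDC1 Nothing (-0.56 ± 0.80, edgeR adjusted p = 0.679). These groups overlapped.

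Havcr2, which encodes the receptor TIM-3, had 29.6, 5.92 and 2.93 CPM in replicates 4, 5 and 6 of cDC2 with LPS, against 46.0, 52.6 and 48.6 CPM in cDC2 Nothing. All LPS libraries lay below all untreated ones, and the untreated ones lay close together. The difference of -1.88 ± 0.71 did not pass the threshold (edgeR, adjusted p = 0.117). Without cDC2 LPS replicate 4 it was -3.40 with an adjusted p of 0.00871, and it also passed with the replicate number as a block (adjusted p = 0.0452) and without the filter (adjusted p = 0.00782). In cDC1 Havcr2 had 66.8, 25.4 and 14.4 CPM with LPS, against 11.1, 9.73 and 25.5 CPM in cDC1 Nothing (1.19 ± 0.67, adjusted p = 0.226), and the groups overlapped. Within cDC2 with LPS the library with the least Lgals9 had the most Havcr2.

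**Figure D2:**
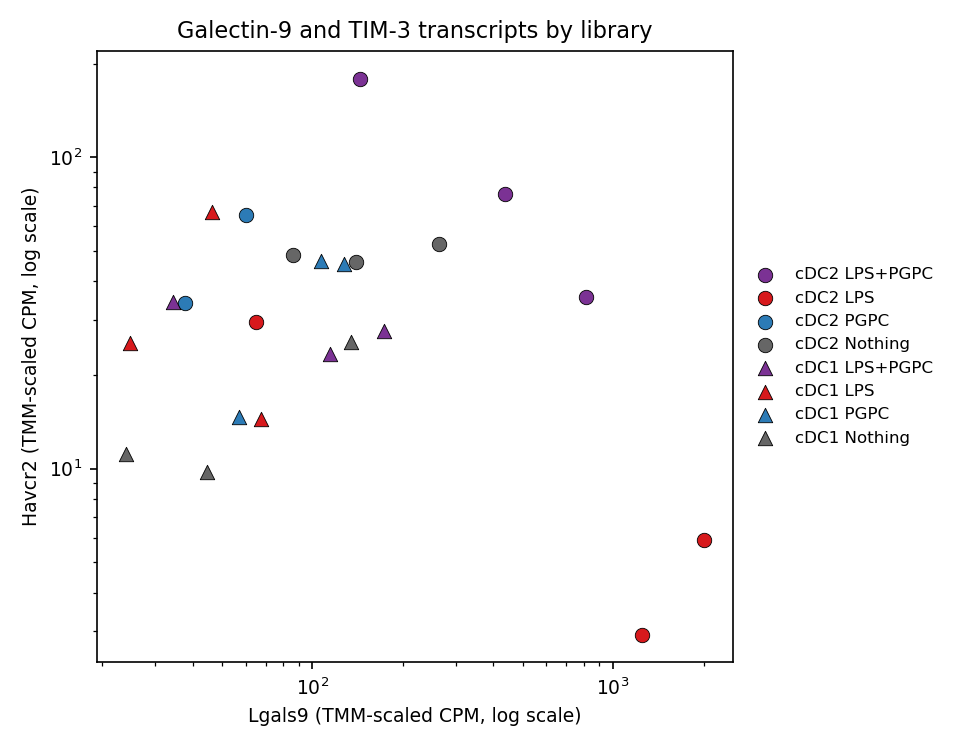
Level of Havcr2 (vertical axis, CPM, log scale) against Lgals9 (horizontal axis, CPM, log scale) in each of the 23 libraries, with 1 mark a library and groups shown by colour and shape. In cDC2 with LPS, replicate 4 stood at 64.9 CPM of Lgals9 and 29.6 CPM of Havcr2, while replicates 5 and 6 combined high Lgals9 with the lowest Havcr2 of all libraries.

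Ido1, the tryptophan-degrading enzyme, was scarce in all groups. It had 1.02, 7.53 and 0.977 CPM in replicates 4, 5 and 6 of cDC2 with LPS, from 17 counts, against 0, 0.774 and 0 CPM in cDC2 Nothing, from 3 counts. The counting ratio was 9.23 (95% counting interval 2.67 to 49.2), and the edgeR test did not call it (adjusted p = 0.281). In cDC1 it had 5.62, 8.25 and 3.82 CPM with LPS, against 0, 0 and 1.06 CPM in cDC1 Nothing, with no overlap (3.70 ± 1.37, edgeR adjusted p = 0.0618). That adjusted p fell under the threshold in DESeq2 (0.0306), without the filter (0.0496), with the replicate block (0.0476) and without cDC1 Nothing replicate 3 (0.0215).

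Fas, the death receptor, had 6.64, 19.4 and 15.6 CPM in replicates 4, 5 and 6 of cDC2 with LPS, against 1.07, 2.32 and 0 CPM in cDC2 Nothing (3.14 ± 1.19, edgeR adjusted p = 0.115). In cDC1 it had 9.54, 7.66 and 10.6 CPM with LPS, against 0, 6.19 and 1.21 CPM in cDC1 Nothing (1.71 ± 1.01, adjusted p = 0.251). The groups did not overlap in either kind of cell, and neither difference was called. In cDC2 it was called in the fit within 1 kind of cell (adjusted p = 0.00924) and without the filter (adjusted p = 0.0230).

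The libraries with LPS and with Nothing did not overlap for 5 of the 6 tested members in cDC2 (Cd274, Cd200, Havcr2, Ido1 and Fas), beside 27.0% of all tested genes, and for 4 of 6 in cDC1 (Cd274, Cd200, Ido1 and Fas), beside 39.1% of all tested genes. The difference between the kinds of cell in the response to LPS was tested by an interaction. It was called for 0 of 6 members by edgeR, beside 1.33% of all tested genes, for 2 of 6 at an unadjusted p under 0.05 and for 1 of 6 by DESeq2. Those at an unadjusted p under 0.05 were Havcr2 (-3.07 ± 0.98, adjusted p = 0.132) and Lgals9 (3.30 ± 1.15, adjusted p = 0.181). Both passed when cDC2 LPS replicate 4 was left out (adjusted p = 0.0121 and 0.0317), and DESeq2 called Havcr2 (adjusted p = 0.0404). For Cd274 the interaction was 0.75 ± 0.64 with a 95% interval of -0.51 to 2.00, and for Cd200 it was 1.09 ± 0.75 with an interval of -0.38 to 2.56.

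**Figure D3:**
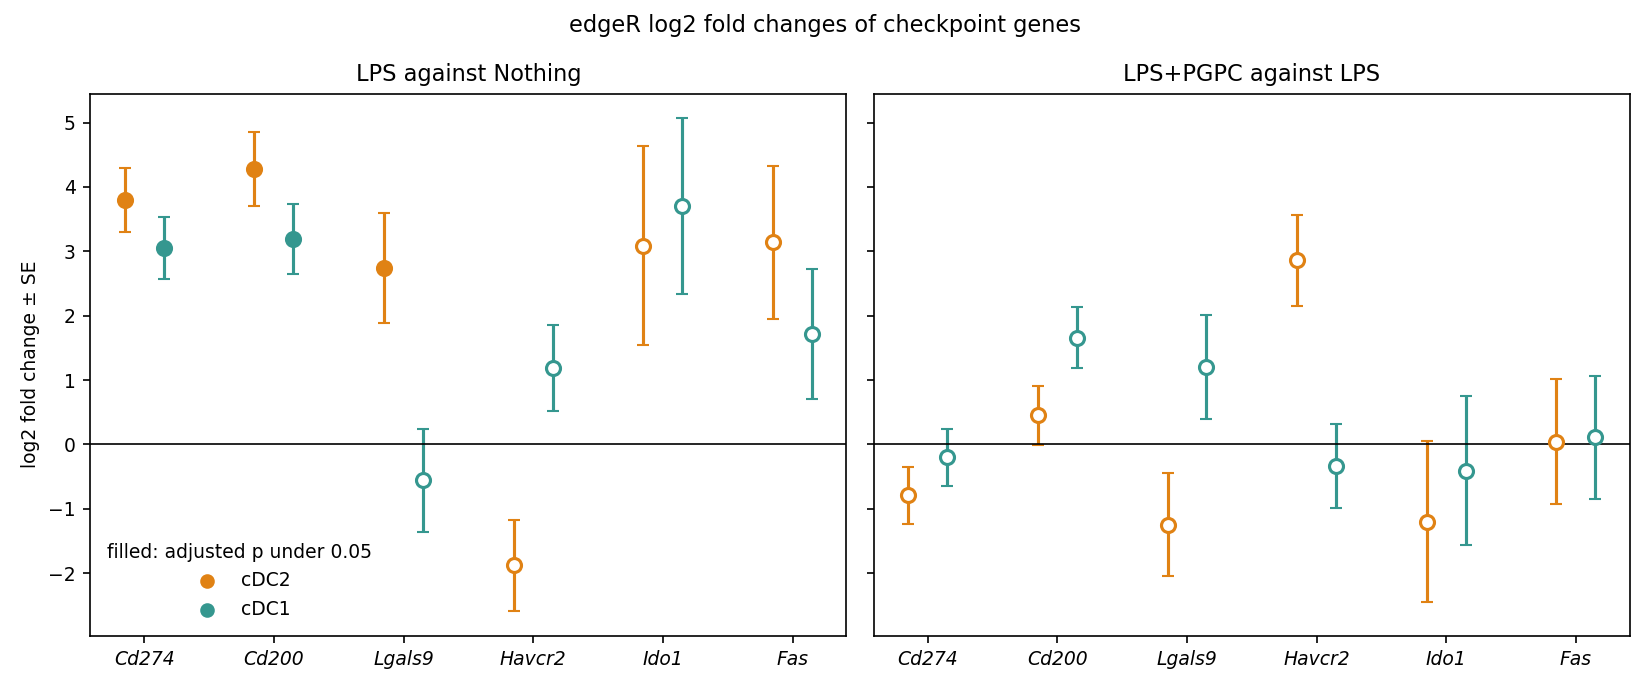
Log2 fold change ± standard error (vertical axis) of the 6 tested members, for LPS against Nothing in the left panel and LPS_PGPC against LPS in the right panel, cDC2 left of cDC1 for each gene. Filled points had an edgeR adjusted p under 0.05: they were Cd274 and Cd200 in both kinds of cell and Lgals9 in cDC2, all in the left panel.

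With PGPC alone, Cd200 in cDC1 was the single member called. Cd200 had 11.2, 17.6 and 14.5 CPM in replicates 1, 2 and 3 of cDC1 with PGPC, against 2.56, 1.14 and 4.38 CPM in cDC1 Nothing. Every PGPC library lay above every untreated one (2.40 ± 0.53, edgeR adjusted p = 0.0167). This was 1 of 6 tested members, beside 2.08% of all tested genes called and 0.578% called higher. The call was lost without cDC1 Nothing replicate 1 (adjusted p = 0.0525) or replicate 2 (0.0780), in the fit within 1 kind of cell (0.0580) and in the fit of all 36 libraries (0.111). In these libraries neutrophil markers (7 of 8 with counts, Elane at 0) summed to 190 to 984 CPM with PGPC and 23.1 to 140 CPM with Nothing (6 of 8 with counts, Elane and Ly6g at 0). Of the mast cell or basophil markers, which summed to 108 to 167 CPM with PGPC and 96.6 to 172 CPM with Nothing, Cpa3 was called higher, at 15.2 CPM with PGPC and 0.0842 CPM with Nothing (edgeR adjusted p = 0.0227). Mcpt8 and Fcer1a, at 5.50 and 4.36 CPM with PGPC, and Cd200r3, at 8.33 CPM with PGPC and called higher (adjusted p = 0.0377), had no count in cDC1 Nothing. Monocyte or macrophage markers were at 4132 to 5588 CPM with PGPC and 1563 to 4290 CPM with Nothing. The part of these cells in the result was not tested. Cd274 stood at 9.77, 12.7 and 35.8 CPM in cDC1 with PGPC, which overlapped cDC1 Nothing (0.24 ± 0.46, adjusted p = 0.866). Havcr2 had 46.6, 14.6 and 45.4 CPM (1.19 ± 0.67, adjusted p = 0.399), and Ido1 4.69, 0 and 3.31 CPM (2.63 ± 1.32, adjusted p = 0.326). Lgals9, at 57.2 to 127 CPM, and Fas, at 0 to 8.12 CPM, overlapped their untreated ranges too.

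In cDC2 with PGPC, 0 of 6 members were called by edgeR and by DESeq2, beside 0.0160% of all tested genes, and 2 of 6 had an unadjusted p under 0.05. These were Cd274, at 17.0 and 24.1 CPM in replicates 4 and 5 with PGPC, against 39.3, 103 and 44.8 CPM in cDC2 Nothing (-1.68 ± 0.57, adjusted p = 0.757), and Cd200. Cd200 had 1 count in each of the 2 PGPC libraries and 32 counts in cDC2 Nothing, a ratio of 0.205 (95% counting interval 0.0238 to 0.802). Lgals9 had 37.8 and 60.2 CPM with PGPC, below every untreated library (-1.78 ± 0.98, adjusted p = 0.898). Havcr2 had 33.9 and 65.4 CPM with PGPC, on both sides of the untreated range. The cDC2 with PGPC lacked Ly6c2 of the monocyte or macrophage markers, which summed to 4799 to 5966 CPM there.

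With LPS_PGPC, Cd274 and Cd200 were again called higher than in untreated cells of both kinds. In cDC2 with LPS_PGPC, 2 of 6 members were called higher than with Nothing (7.62% of all tested genes called, 5.42% higher), and in cDC1 with LPS_PGPC also 2 of 6 (11.9% called, 6.58% higher). Cd274 had 486, 493 and 574 CPM in replicates 4, 5 and 6 of cDC2 with LPS_PGPC (3.01 ± 0.48 against Nothing, edgeR adjusted p = 0.000201). It had 94.4, 165 and 99.6 CPM in replicates 1, 2 and 3 of cDC1 with LPS_PGPC (2.85 ± 0.48, adjusted p = 0.000230). Every one of these libraries lay above every Nothing library of its kind. Plasmacytoid dendritic cell markers (9 of 10 with counts, Klk1 at 0) were at 304 to 515 CPM in cDC2 with LPS_PGPC and 22.4 to 71.7 CPM in cDC2 Nothing. Again the sums do not show which markers carried them. Monocyte or macrophage markers were at 656 to 944 CPM in cDC1 with LPS_PGPC and 1563 to 4290 CPM in cDC1 Nothing, and their part in these results was not tested either. Cd200 had 75.6, 104 and 122 CPM in cDC2 with LPS_PGPC (4.73 ± 0.58, adjusted p = 2.14e-05) and 94.2, 55.0 and 85.5 CPM in cDC1 with LPS_PGPC (4.85 ± 0.56, adjusted p = 3.08e-06). Of the members not called, Fas had 8.02 to 20.9 CPM in cDC2 with LPS_PGPC (3.18 ± 1.17, adjusted p = 0.107) and 8.97 to 11.97 CPM in cDC1 with LPS_PGPC (1.82 ± 1.00, adjusted p = 0.266), above every untreated library of its kind. Without the filter Fas (0.0153) and Lgals9 (0.0212) were called in cDC2, and Fas also in the fit within 1 kind of cell (0.00881). Ido1 in cDC1 (3.30 ± 1.35, adjusted p = 0.116) was called without cDC1 Nothing replicate 3 (adjusted p = 0.0368). Its counting ratio in cDC2 was 3.65 (95% counting interval 1.08 to 19.2). Pdcd1lg2 had 13 counts in cDC1 with LPS_PGPC, at least 2.49-fold higher than the floor of cDC1 Nothing, and 3 counts in cDC2 with LPS_PGPC. The interaction between the kinds of cell called 0 of 6 members in edgeR, at an unadjusted p under 0.05 and in DESeq2, beside 0.305% of all tested genes.

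In cDC2, 2 of 6 were called higher with LPS_PGPC than with PGPC (6.64% of all tested genes called, 4.43% higher), and in cDC1 also 2 of 6 (16.4% called, 9.79% higher), in each case Cd274 and Cd200. Cd274 differed by 4.69 ± 0.63 in cDC2 (edgeR, adjusted p = 0.000108) and by 2.61 ± 0.47 in cDC1 (adjusted p = 0.000375). Cd200 differed by 2.45 ± 0.48 in cDC1 (adjusted p = 0.000923). In cDC2 its counting ratio was 116, with a 95% counting interval of 32.1 to 959.6, since the PGPC libraries held 2 counts. Lgals9 in cDC2 had 144, 437 and 816 CPM with LPS_PGPC, above both PGPC libraries at 37.8 and 60.2 CPM (3.27 ± 1.04, adjusted p = 0.0592). It was called without the filter (1.04e-06), in DESeq2 (0.00674), with 24 libraries (0.0308) and without cDC2 LPS_PGPC replicate 4 (0.0497). Fas in cDC2 had a counting ratio of 15.96 (95% counting interval 4.36 to 133). These comparisons share the LPS_PGPC libraries with those against Nothing. In cDC1, monocyte or macrophage markers were at 656 to 944 CPM with LPS_PGPC and 4132 to 5588 CPM with PGPC, neutrophil markers were at 1.03 to 62.4 CPM (Mpo and Elane at 0) and 190 to 984 CPM (Elane at 0), and Cpa3 was called lower (edgeR adjusted p = 0.00113). In cDC2, plasmacytoid dendritic cell markers were at 304 to 515 CPM with LPS_PGPC and 44.7 to 61.8 CPM with PGPC, where Siglech, Ccr9, Ly6d, Klk1 and Pacsin1 were at 0. The plasmacytoid sums do not show which markers carried them. The part of all these markers in these calls was not tested.

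In the main fit, which did not pair libraries by replicate number, adding PGPC to LPS changed none of the members past the threshold. With the replicate number as a block, Havcr2 was called in cDC2 and Cd200 in cDC1. In cDC2 with LPS_PGPC against LPS, edgeR called 0 of 6 members (0.385% of all tested genes), with 1 of 6 at an unadjusted p under 0.05 and 1 of 6 called by DESeq2, in both cases Havcr2. Havcr2 had 179, 75.9 and 35.5 CPM in replicates 4, 5 and 6 of cDC2 with LPS_PGPC, against 29.6, 5.92 and 2.93 CPM with LPS. The groups did not overlap, though the lowest LPS_PGPC library was close to the highest LPS library. The difference was 2.86 ± 0.71 (edgeR, adjusted p = 0.0816), and 4.38 (adjusted p = 0.0124) without cDC2 LPS replicate 4. It was also called without cDC2 LPS_PGPC replicate 6 (adjusted p = 0.0467), without the filter (4.09e-05), in DESeq2 (0.00512) and with the replicate block (0.0476). Against cDC2 Nothing, Havcr2 with LPS_PGPC overlapped the untreated range (0.98 ± 0.67, adjusted p = 0.454).

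Cd274 was at 486 to 574 CPM in cDC2 with LPS_PGPC, against 607 to 1216 CPM with LPS. These ranges did not overlap, but the difference of -0.79 ± 0.44 was not called (edgeR, adjusted p = 0.727), with a 95% interval of -1.65 to 0.07. Cd200 in cDC2 differed by 0.45 ± 0.46 (adjusted p = 0.937). Lgals9 had 144, 437 and 816 CPM in cDC2 with LPS_PGPC, within the wide range with LPS (-1.25 ± 0.80, adjusted p = 0.801). Fas stood at 8.02, 13.7 and 20.9 CPM in cDC2 with LPS_PGPC (0.04 ± 0.97 against LPS), and Ido1 at 1.19, 1.22 and 1.82 CPM.

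In cDC1 with LPS_PGPC against LPS, edgeR also called 0 of 6 members (1.93% of all tested genes), with 1 of 6 at an unadjusted p under 0.05 and 1 of 6 called by DESeq2, in both cases Cd200. Cd200 had 94.2, 55.0 and 85.5 CPM in replicates 1, 2 and 3 with LPS_PGPC, against 33.8, 15.3 and 24.1 CPM with LPS. The groups did not overlap (1.66 ± 0.47, edgeR adjusted p = 0.0628). The adjusted p was 0.0130 in DESeq2, 0.0273 without the filter and 0.0443 with the replicate block. Cd274 differed by -0.20 ± 0.44, with a 95% interval of -1.06 to 0.66. Pdcd1lg2 had 0.641, 0.908 and 0 CPM in cDC1 with LPS_PGPC, below all 3 LPS libraries (2-sided exact permutation p = 0.1, n = 3 each, the smallest possible). Lgals9 had 34.5, 173 and 114 CPM with LPS_PGPC (1.20 ± 0.81, edgeR adjusted p = 0.471), Havcr2 34.2, 27.6 and 23.4 CPM (-0.34 ± 0.65), Ido1 3.18 to 5.05 CPM (-0.41 ± 1.16) and Fas 8.97 to 11.97 CPM (0.11 ± 0.96). The interaction with the kind of cell was called for 0 of 6 members by edgeR and by DESeq2 (0.00802% of all tested genes), and 2 of 6, Havcr2 (3.20 ± 0.96, adjusted p = 0.351) and Lgals9 (-2.45 ± 1.14, adjusted p = 0.603), had an unadjusted p under 0.05. Havcr2 passed without cDC2 LPS replicate 4 (adjusted p = 0.0381).

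Between the kinds of cell, Cd274 was called higher in cDC2 than in cDC1 in 3 of the 4 conditions. Untreated, it had 39.3, 103 and 44.8 CPM in cDC2 and 20.5, 13.5 and 16.5 CPM in cDC1, with no overlap (1.95 ± 0.47, edgeR adjusted p = 0.00893). This was 1 of 6 members called, beside 10.2% of all tested genes called and 4.01% called higher. The call was lost without cDC2 Nothing replicate 5 (1.33, adjusted p = 0.150) or without cDC1 Nothing replicate 2 (adjusted p = 0.0585). With LPS the difference was 2.70 ± 0.47 (adjusted p = 0.000491), and with LPS_PGPC it was 2.11 ± 0.46 (adjusted p = 0.00491). With PGPC it was 0.03 ± 0.54, where cDC2 had 17.0 and 24.1 CPM and cDC1 had 9.77 to 35.8 CPM. Monocyte or macrophage markers were also higher in cDC2 in these 3 conditions, at 2895 to 5682 CPM with LPS, 2794 to 5730 CPM with LPS_PGPC and 5769 to 7268 CPM with Nothing, against 910 to 2036, 656 to 944 and 1563 to 4290 CPM in cDC1 under the same conditions, with all 12 markers detected. With PGPC the sums overlapped, at 4799 to 5966 CPM in cDC2, where Ly6c2 was at 0, and 4132 to 5588 CPM in cDC1. The part of these markers' cells in the Cd274 difference was not tested.

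With LPS, 3 of 6 members were called higher in cDC2 than in cDC1 (7.80% of all tested genes called, 5.59% higher). The cDC2 markers summed to 1138 to 4321 CPM in cDC2 with LPS and 816 to 1127 CPM in cDC1 with LPS, nearer to each other than in untreated cells. The cDC1 markers summed to 160 to 296 CPM in cDC2 with LPS and 468 to 671 CPM in cDC1 with LPS. Cd200 was at 53.2 to 87.9 CPM in cDC2 and 15.3 to 33.8 CPM in cDC1 (1.58 ± 0.47, edgeR adjusted p = 0.0384). Its call was lost in 5 of the 6 fits that left out 1 of these libraries, all but that without cDC2 LPS replicate 4, with an adjusted p of up to 0.136. Lgals9 differed by 4.57 ± 0.92 (adjusted p = 0.00199). In the fit of all 36 libraries Cd200 had an adjusted p of 0.160 and Lgals9 of 0.144. The Lgals9 ranges overlapped, although only just: the lowest cDC2 library, replicate 4, lay just under the highest cDC1 library (64.9 and 67.6 CPM). Havcr2 differed by -1.43 ± 0.69 (adjusted p = 0.231), and by -2.95 (adjusted p = 0.0175) without cDC2 LPS replicate 4.

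With LPS_PGPC, 1 of 6 members was called higher in cDC2 (7.14% of all tested genes called, 4.60% higher), namely Cd274. Havcr2 was at 35.5 to 179 CPM in cDC2 and 23.4 to 34.2 CPM in cDC1, without overlap (1.77 ± 0.66, edgeR adjusted p = 0.111), and Lgals9 differed by 2.12 ± 0.82 (adjusted p = 0.126). Cd200, called with LPS, differed by 0.36 ± 0.45 with LPS_PGPC (adjusted p = 0.722, 95% interval -0.52 to 1.25). With PGPC, 1 of 6 members was called (12.1% of all tested genes called, 5.22% lower), and it was lower in cDC2: Cd200 had 2 counts in cDC2 and 11.2 to 17.6 CPM in cDC1, a ratio of 0.0649 (95% counting interval 0.00784 to 0.236, edgeR adjusted p = 0.00473). The call was lost without cDC2 PGPC replicate 4 (adjusted p = 0.156). Among untreated cells Havcr2 was at 46.0 to 52.6 CPM in cDC2 and 9.73 to 25.5 CPM in cDC1, without overlap (1.64 ± 0.69, adjusted p = 0.135).

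Ordered by mean level over the 8 groups, Cd274 ran from cDC2 with LPS (894 ± 306 CPM, n = 3) and cDC2 with LPS_PGPC (517 ± 48.9 CPM) to cDC1 with LPS (138 ± 36.4 CPM), and neighbours in this stretch did not overlap. The next groups, cDC1 with LPS_PGPC and cDC2 Nothing, overlapped their upper neighbour. No library of cDC2 with PGPC reached cDC2 Nothing, and the last 3 groups, cDC2 with PGPC, cDC1 with PGPC and cDC1 Nothing (16.8 ± 3.51 CPM), overlapped one another in order. Cd200 ran from cDC2 with LPS_PGPC (100.8 ± 23.6 CPM) through cDC1 with LPS_PGPC (78.2 ± 20.6 CPM) to cDC2 with LPS (73.9 ± 18.3 CPM), which overlapped. Below these came cDC1 with LPS (24.4 ± 9.23 CPM) and cDC1 with PGPC (14.4 ± 3.20 CPM), which overlapped each other, and then the other 3 groups at under 3 CPM, without overlap with cDC1 with PGPC. For Lgals9, Havcr2, Ido1 and Fas every group overlapped its neighbour in the order.

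The members did not vary alike between replicates. The pooled standard deviation of log2 CPM within groups was 0.55 for Cd274, below the median of 0.80 over all tested genes, and 0.94 for Cd200, 0.97 for Havcr2, 1.22 for Ido1, 1.34 for Lgals9 and 1.38 for Fas. Over the 8 group means, log2 levels of Cd200 and Fas had a Pearson r of 0.95, Cd274 and Fas 0.86, and Cd274 and Cd200 0.78, while Havcr2 had an r between -0.19 and -0.11 with the other 5 tested members. These group means share libraries and scaling, so the values are descriptions. For within-group deviations over the 23 libraries, the highest of the 15 pairs were Lgals9 and Ido1 (r = 0.47) and Cd274 and Lgals9 (0.45), and the lowest was Lgals9 and Havcr2 (-0.45).

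The genes most like each member were sought among 10284 genes that reached 5 CPM on average in some group, without predicted gene models (Gm and Rik symbols). They are the highest of many values over only 8 group means, so a high r does not set a gene apart or show a link. Those most like Cd274 were Mir155hg (r = 0.990), the host gene of a microRNA, Gbp6 (0.989), an interferon-induced GTPase, and Coa5 (0.989). For Cd200 they were Ifi35 (0.985), an interferon-induced gene, Setd5 (0.982) and Lrp8 (0.981). Ido1 was most like Ptprc (0.978), which encodes CD45, Il12b (0.978), a subunit of interleukin-12, and Birc3 (0.974). Fas was most like Gstt1 (0.986), Pcgf5 (0.984) and Csprs (0.982). Lgals9 had less close partners in Chmp1b (0.958), Tmem171 (0.938) and Upf1 (0.932), and so had Havcr2 in Ust (0.953), Ptpra (0.916) and Pigm (0.916).

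The interferon route to Cd274 held 16 genes, all tested. With LPS, 10 were called higher and 0 lower in cDC2, beside 8.52% of all tested genes called and 5.82% called higher. In cDC1, 9 were called higher and 1 lower, beside 17.9% called and 8.58% called higher. The median log2 fold change of the 16 was 1.78 in cDC2 and 1.82 in cDC1, against 0.03 and -0.12 over all tested genes. In cDC2 these included the kinase Jak2 (3.48 ± 0.53) and its inhibitor Socs1 (4.75 ± 0.68, edgeR adjusted p = 4.49e-05). In cDC1 Jak2 rose by 3.80 ± 0.51 and Socs3, a related inhibitor, by 4.04 ± 0.74, while Ifnar2, a chain of the type I interferon receptor, was lower (-1.89 ± 0.35, adjusted p = 0.000418). The LPS responses of Irf1 (2.62 ± 0.60, adjusted p = 0.0233) and Ifnar2 (2.41 ± 0.49, adjusted p = 0.0121) differed between cDC2 and cDC1 by the interaction. With PGPC added to LPS none of the 16 was called in either kind of cell, beside 0.385% of all tested genes in cDC2 and 1.93% in cDC1.

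Costimulatory ligands drive T cells rather than restrain them. Of 11 genes, 8 were tested. With LPS 5 were called higher and 0 lower in cDC2 (median 2.90), beside 8.52% of all tested genes called. In cDC1, 6 were called higher and 1 lower (median 4.26), beside 17.9% of all tested genes called. The gene called lower was Cd48, at 8.71 CPM in cDC1 with LPS and 37.1 CPM in cDC1 Nothing (-2.10 ± 0.51, edgeR adjusted p = 0.00548), and Tnfsf9 was called in neither kind of cell. Cd40 stood at 328 CPM in cDC2 with LPS and 5.47 CPM in cDC2 Nothing (5.75 ± 0.66), and at 467 CPM in cDC1 with LPS and 4.53 CPM in cDC1 Nothing (6.58 ± 0.66, edgeR adjusted p = 3.96e-07). Cd86, a ligand of CD28 and CTLA-4, rose by 4.36 ± 0.57 in cDC2 and 4.45 ± 0.52 in cDC1, and the adhesion molecule Icam1 by 3.38 ± 0.53 and 4.06 ± 0.54.

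Of the other PD-1 ligand partners (10 genes, 9 tested), Cd80, which binds CD28 and also PD-L1, was the single call with LPS, higher in cDC1 (5.25 ± 0.90, edgeR adjusted p = 0.000241) and in cDC2, where untreated libraries held 2 counts. Over all tested genes, 17.9% were called in cDC1 and 8.52% in cDC2. Of the CD200 receptor route (8 genes, 7 tested), 1 was called higher and 1 lower with LPS in each kind of cell, beside 8.52% of all tested genes called in cDC2 and 17.9% in cDC1. The receptor itself, Cd200r1, fell to 4.54 ± 2.11 CPM in cDC2 with LPS, against 19.9 ± 11.9 CPM in cDC2 Nothing (-2.02 ± 0.61, adjusted p = 0.0379), and to 0.996 ± 0.631 CPM in cDC1 with LPS, against 10.8 ± 5.93 CPM in cDC1 Nothing (-3.37 ± 0.62, adjusted p = 0.000469). Its ligand gene Cd200 was higher in the same libraries. Dok1, an adaptor of the receptor, rose by 1.15 ± 0.35 in cDC2 and 1.07 ± 0.34 in cDC1. With LPS_PGPC, Cd200r1 was at 18.7 ± 1.41 CPM in cDC2 and 1.41 ± 0.495 CPM in cDC1 (3.72 ± 0.59, adjusted p = 0.000289).

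Of the galectin-9 and TIM-3 partners (12 genes, all tested), 1 was called higher and 2 lower with LPS in each kind of cell, beside the same 8.52% in cDC2 and 17.9% in cDC1. The galectins Lgals3 (-2.54 ± 0.39 in cDC2 and -3.69 ± 0.41 in cDC1) and Lgals1 (-1.99 ± 0.50 in cDC2 and -4.26 ± 0.55 in cDC1) were those lower, unlike Lgals9 in cDC2. In cDC1 with LPS_PGPC against LPS, 3 of the 12 were called higher: Lgals3 (2.18 ± 0.39, edgeR adjusted p = 0.00412), Lgals1 (2.32 ± 0.51, adjusted p = 0.0154) and Tnfrsf9 (2.40 ± 0.61, adjusted p = 0.0380), which encodes the costimulatory receptor 4-1BB. None of the 12 was called for the same comparison in cDC2. Over all tested genes, 1.93% were called for this comparison in cDC1 and 0.385% in cDC2. Whether that contrast differed between the kinds of cell was called for 0.00802% of all tested genes.

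Of the kynurenine route around Ido1 (17 genes, 14 tested), 3 were called higher and 0 lower with LPS in each kind of cell, beside 5.82% of all tested genes called higher in cDC2 and 8.58% in cDC1. Il4i1, a secreted enzyme that oxidises tryptophan and phenylalanine, rose by 4.77 ± 0.63 in cDC2 and 6.41 ± 0.68 in cDC1 (edgeR, adjusted p = 9.53e-07). Ido2, a relative of Ido1, was also called in both, with 1 count in cDC1 Nothing. Of the Fas route (16 genes, 15 tested), 5 were called higher and 0 lower with LPS in cDC2, and 4 higher and 1 lower in cDC1, beside 8.52% of all tested genes called in cDC2 and 17.9% in cDC1. Traf1 (4.05 ± 0.57 in cDC2 and 6.47 ± 0.64 in cDC1) and Cflar (3.10 ± 0.53 in cDC2 and 3.05 ± 0.51 in cDC1), which blocks death signals from Fas, were among those higher. Casp6, a caspase, fell by 2.29 ± 0.41 in cDC1. Fasl, the ligand of Fas, had 2 counts in cDC2 with LPS_PGPC and none in the other groups.

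**Figure D4:**
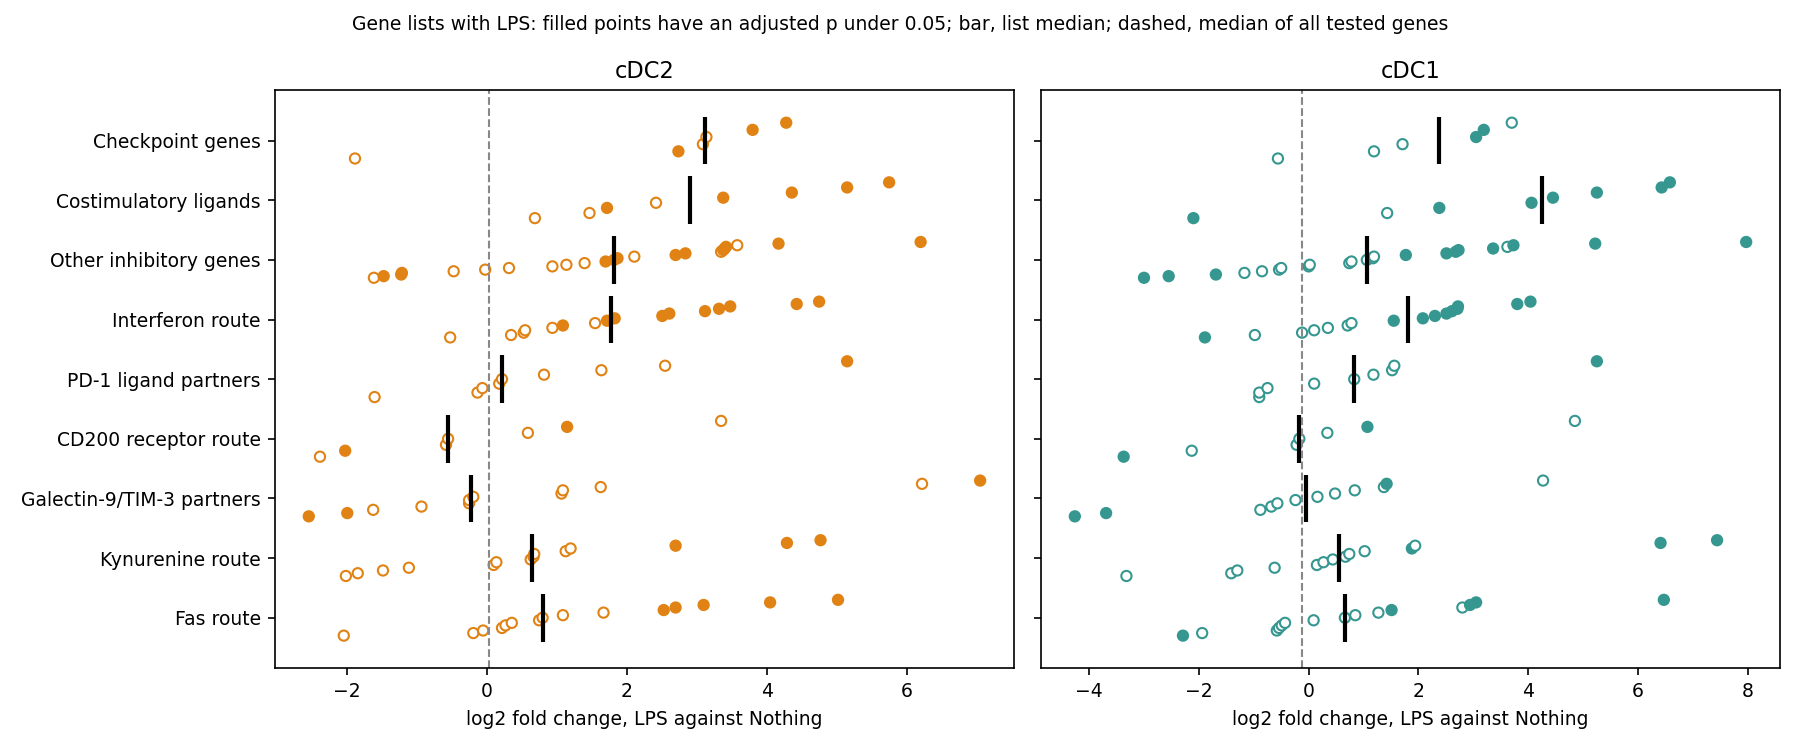
Log2 fold change with LPS against Nothing (horizontal axis) of the tested genes, with 1 row for each list, for cDC2 in the left panel and cDC1 in the right panel, 1 point a gene (filled where the edgeR adjusted p was under 0.05), with a bar at the list's median and a dashed line at the median of all tested genes. Costimulatory ligands and the interferon route lay mostly to the right of the dashed line in both panels, with list medians of 2.90 and 1.78 in cDC2 and 4.26 and 1.82 in cDC1.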

How the data were processed

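Smart-Seq2 complementary DNA from RNA worth about 2000 cells per reaction was made into Nextera XT libraries and read in paired ends with a NextSeq, per the labels' protocols. The authors deposited RSEM expected counts per gene symbol, on GRCm38 after bcl2fastq 2.2, per the submitters' processing notes, and the sources used here name no aligner, annotation or RSEM version. Of the nonzero expected counts, 21.0% were not whole numbers, and all were rounded. The 12 alum libraries and cDC2 PGPC replicate 6 (3805 counts) were left out, which leaves 23 of 36 libraries.

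edgeR 4.0.16 (limma 3.58.1, R 4.3.3) fitted 8 group means with TMM scaling, filterByExpr (minimum count 10, minimum total 15) and a robust quasi-likelihood fit, tested on simulated data. There were 17 contrasts, with Benjamini-Hochberg adjustment over 12463 genes and a threshold of 0.05, and every adjusted p is edgeR's unless another tool is named. Ratios against groups of 1 to 3 counts have an exact 95% interval, and the floor is 3 counts. With 243870 counts at the shallowest, low genes there have little precision. P-values set a difference against the spread between these libraries, and the labels do not say whether animals were pooled.

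The members and lists were chosen with earlier results of these data known. All 7 members are named, with up to 3 called genes per list and comparison of smallest adjusted p, and the 3 genes most like each tested member in log2 CPM (prior count 2), and some genes that this rule takes are not reported here. Promoters are from RefSeq and positions from GENCODE M21, which held 52846 of the symbols. Alternatives were RLE scaling, no filter, DESeq2 1.42.0, a replicate block, all 36 libraries, the ribosomal RNA locus left out, each library left out and, chosen after seeing the data, 24 libraries, fits within 1 kind of cell, and a wider ribosomal locus.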

Additional observations from a re-analysis of the deposited data

Results flagged for a closer look

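Cd274 had a signal in libraries that no comparison used. In cDC1 given LPS with alum, an aluminium salt adjuvant, the 3 libraries had 0.311, 975 and 977 unscaled CPM of Cd274, from 3296 counts in all, with a median of 975.4 CPM. The cDC1 Nothing libraries ran from 9.71 to 14.6 unscaled CPM. All the other 6 members were at 0 in those alum libraries, which detected 1862 to 2610 genes, against 11876 to 14720 genes in the cDC1 Nothing libraries. A median above every untreated library was chosen as the criterion after the values were seen. The difference was not tested, and what these values stand for was not tested.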

How the results depend on the processing

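The 20 member calls kept their direction and stayed past the threshold under RLE scaling, no filter, DESeq2, the ribosomal RNA locus left out and 24 libraries. The fit of all 36 libraries lost 13 of them, and the counts of members called there were 1 with LPS, 1 with LPS_PGPC and 0 with PGPC in cDC1, 1 with LPS and 1 with LPS_PGPC in cDC2, 1 for LPS_PGPC against PGPC in each, and 0 for cDC2 against cDC1 with Nothing, LPS and LPS_PGPC. Without the filter the counts were 5 with LPS, 4 with LPS_PGPC, 1 for LPS_PGPC against LPS and 4 against PGPC in cDC2, 1 for LPS_PGPC against LPS in cDC1, 2 for cDC2 against cDC1 untreated and 3 with LPS_PGPC, and 2 and 2 for the interactions of LPS against Nothing and of LPS_PGPC against LPS. DESeq2 called 1 for LPS_PGPC against LPS in each kind of cell and 1 for the interaction with LPS. The fit within 1 kind of cell called 0 with PGPC in cDC1. The causes were not tested.

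With the replicate number as a block, 1 member was called for LPS_PGPC against LPS in each kind of cell, the Lgals9 call with LPS in cDC2 was lost, and Ido1 with LPS in cDC1 and Havcr2 with LPS in cDC2 were newly called. The block changed the side of the threshold for no other member. Same-numbered libraries had deviations with r from -0.041 to 0.176 in 18 pairs of cDC1 (median 0.049), with 6 pairs over 0.1. In 15 pairs of cDC2 r ran from -0.188 to 0.52 (median 0.004), with 2 pairs over 0.1. Those 2 pairs were LPS with LPS_PGPC in replicate 4 (0.520) and in replicate 6 (0.204), beside 0.091 in replicate 5. In cDC1 LPS with LPS_PGPC had 0.176, 0.030 and 0.133 in replicates 1, 2 and 3. Differently numbered libraries had r from -0.159 to 0.091 in 36 pairs of cDC1 (median -0.030), with 0 pairs over 0.1. In 30 such pairs of cDC2 r ran from -0.45 to 0.332 (median -0.004), with 5 pairs over 0.1. The highest was LPS replicate 5 with LPS_PGPC replicate 6. Whether same-numbered libraries share a source was not tested. Under the block the sign turned for Fas with PGPC in cDC1 (-0.05), Havcr2 in the interaction of LPS_PGPC against Nothing (-0.15) and Ido1 in that of LPS_PGPC against LPS (0.30).

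Other signs that turned were all of values not called. These were Havcr2 with PGPC in cDC2 (0.03 with RLE, 0.04 with DESeq2, 0.02 within 1 kind of cell), Fas for LPS_PGPC against LPS in cDC2 (-0.04 with RLE), Ido1 for untreated cDC2 against cDC1 (0.15 with DESeq2), Cd274 for cDC2 against cDC1 with PGPC (-0.07 without the filter, -0.10 with 36 libraries, -0.02 without the ribosomal locus, -0.01 with 24 libraries) and Cd200 in the interaction of LPS_PGPC against Nothing (0.03 with 36 libraries).

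With 1 library left out at a time, 102 of 117 called values stayed called and none turned. Counts ran from 0 to 1 with PGPC in cDC1, for LPS_PGPC against LPS in cDC2, for cDC2 against cDC1 with Nothing and with PGPC and for the interaction of LPS_PGPC against LPS, and from 0 to 2 for the interaction with LPS. Log2 values that turned sign ran, in cDC1, from -1.03 to 0.41 for Lgals9 with LPS, -0.57 to 0.56 for Cd274 and -2.41 to 1.95 for Fas with PGPC, -0.50 to 0.12 for Cd274, -0.63 to 0.53 for Havcr2 and -0.03 to 0.31 for Fas for LPS_PGPC against LPS, and -0.39 to 0.60 for Lgals9 against PGPC. In cDC2 they ran from -0.54 to 0.40 for Havcr2 and -4.22 to 4.73 for Ido1 with PGPC, -1.63 to 0.48 for Ido1 and -0.36 to 0.38 for Fas for LPS_PGPC against LPS, and -0.26 to 6.11 for Ido1 against PGPC. For cDC2 against cDC1 they ran from -0.53 to 1.31 for Cd200, -4.40 to 4.15 for Ido1 and -1.59 to 0.83 for Fas untreated, and -0.34 to 0.85 for Cd274, -0.08 to 0.85 for Havcr2 and -7.33 to 0.49 for Fas with PGPC. For the interactions they ran from -4.98 to 3.57 for Ido1 and -0.26 to 2.16 for Fas with LPS, from -0.14 to 0.79 for Cd274, -0.94 to 0.90 for Cd200, -0.12 to 1.37 for Lgals9, -0.66 to 0.53 for Havcr2, -5.78 to 2.77 for Ido1 and -0.33 to 2.09 for Fas with LPS_PGPC against Nothing, and from -1.27 to 0.88 for Ido1 and -0.47 to 0.26 for Fas with LPS_PGPC against LPS.

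Of 56 group levels, 27 moved by more than 1 SD when the wider ribosomal locus was left out, 2 without the narrower one, 3 with 36 libraries and 2 with 24, and none with RLE, no filter or 1 library left out. DESeq2, the block and the fits within 1 kind of cell gave no level.

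Calls over all tested genes moved by over 1.5 times in these fits. With all 36 libraries they were, in cDC1, 596 with LPS (main count 2235), 43 with PGPC (259), 362 with LPS_PGPC (1480), 8 for LPS_PGPC against LPS (241) and 502 against PGPC (2043), and, in cDC2, 232 (1062), 0 (2), 155 (950), 2 (48) and 102 (827) in the same order. For cDC2 against cDC1 they were 118 with Nothing (1265), 300 with LPS (972), 285 with PGPC (1502) and 143 with LPS_PGPC (890), and for the interactions 6 for LPS (166), 3 for LPS_PGPC against Nothing (38) and 0 for LPS_PGPC against LPS (1). Without the filter and in DESeq2 they were 632 and 642 with PGPC and 585 and 712 for LPS_PGPC against LPS in cDC1, 33 and 13 with PGPC and 156 and 200 for LPS_PGPC against LPS in cDC2, and 425 and 424, 221 and 221, and 97 and 59 for the interactions, with 1261 in DESeq2 for LPS_PGPC against PGPC in cDC2. Within 1 kind of cell they were 68 with PGPC in cDC1, 1 with PGPC in cDC2 and 88 for LPS_PGPC against LPS in cDC2, and the replicate block gave 1 with PGPC in cDC2.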

Other observations

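Other inhibitory genes outside the 7 set the kinds of cell apart in their own ways. Lag3, an inhibitory receptor of lymphocytes that some dendritic cells carry, had 15.4 ± 5.18 CPM in cDC2 with LPS_PGPC, 13.4 ± 12.4 CPM with LPS and 0.519 CPM (6 counts) with Nothing. In cDC1 it had 4.90 ± 0.456 CPM with LPS_PGPC, 14.8 ± 7.52 CPM with LPS and 21.3 ± 6.93 CPM with Nothing. The interaction was called for LPS (4.67 ± 1.11, edgeR adjusted p = 0.0319) and for LPS_PGPC (6.45 ± 1.12, adjusted p = 0.00753).

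Btla, an inhibitory receptor for HVEM, had 17.0 ± 5.34 CPM in cDC2 with LPS and 1.13 ± 1.05 CPM in cDC2 Nothing, and 130.4 ± 50.9 CPM in cDC1 with LPS and 19.4 ± 12.4 CPM in cDC1 Nothing. It was lower in cDC2 than in cDC1 with LPS (-2.94 ± 0.51, edgeR adjusted p = 0.000542). In cDC1 it was lower with LPS_PGPC than with LPS (-2.14 ± 0.48, adjusted p = 0.0198), as was Ebi3, a subunit of interleukin-27 and interleukin-35 (-2.81 ± 0.51, adjusted p = 0.00412). Kmo, which acts after Ido1 in kynurenine breakdown, was lower in untreated cDC2 than in untreated cDC1 (-4.84 ± 0.69, adjusted p = 0.000115) and lower in cDC1 with LPS_PGPC than with LPS (-2.29 ± 0.56, adjusted p = 0.0305).

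In cDC2 given alum alone, outside the comparisons, Lgals9 had 0, 3.00 and 393.5 unscaled CPM in the 3 libraries, which detected 1952 to 2285 genes, against 9687 to 14214 genes in cDC2 Nothing.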
